A study of Mus musculus with 12 samples.

Results

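Interferon beta, its receptor chains and the genes that interferon induces were followed in mouse dendritic cells sampled 1.5 h after the start of exposure to lipopolysaccharide (LPS), a bacterial product. The set was a list of 40 genes, each read from the probe set that the platform annotation assigns to that gene alone. Of these, 38 were measured among 22180 genes on the array, and where a gene had several such probe sets, as Ifi35 did, the brightest one stood for it. Ifi47 and Dtx3l lay on probe sets shared by several genes and were not analysed here.

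Bone marrow of 8-week-old C57BL/6 mice, all labelled male, had been cultured in GM-CSF at 20 ng/ml, and semi-adherent dendritic cells (BMDC) were collected on day 7. Cells were either wildtype or lacked Arc/Arg3.1 on both alleles (labelled -/-), a gene studied mostly for its rapid induction in neurons. For each genotype, cells were kept in medium or given LPS at 100 ng/ml for 30 min, washed and held for 1 h in medium. This gave 4 groups (untreated wildtype, LPS wildtype, untreated knockout, LPS knockout) of 3 arrays labelled as biological replicates, 12 Affymetrix arrays in all. A GM-CSF culture of this kind is a mixture of cells, and in bulk RNA fewer cells of a type and less RNA per cell cannot be told apart.

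LPS is sensed by TLR4, whose branch through the adaptor TRIF activates the transcription factors IRF3 and NF-kappaB, and these switch on Ifnb1, the gene of interferon beta. Secreted interferon beta binds a receptor made of IFNAR1 and IFNAR2. The receptor activates a transcription factor complex that contains IRF9 and binds the interferon-stimulated response element (ISRE) in the promoters of interferon-stimulated genes. Some of these genes, Isg15, Ifit1 and Ifit2 among them, can also be switched on by IRF3 without interferon.

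Signals were log2 values, with a median of 6.50 to 6.67 per array, and probe sets with no gene assigned, whose median per array was 5.89 to 6.10, served as the background level. Arc gave 9.21 to 9.62 in wildtype and 7.68 to 8.05 in knockout cells. The 3 untreated wildtype arrays resembled each other more than any other replicates, with an SD of pairwise differences of 0.10 to 0.11 over 6440 well-expressed genes against 0.19 to 0.44 in the other groups. They were therefore averaged and counted as 1 sample, whose spread was taken to be that of the other groups in every test against untreated wildtype cells. Small nucleolar and Cajal body RNAs (79 genes) had a lower median signal on the second and the third array of each LPS group (9.55 to 9.85) than on the 8 remaining arrays (10.44 to 11.03). Y-linked genes gave signal on 3 arrays and Xist on the other 9, against the label of sex. The 3 are the wildtype LPS array of replicate 1 and the untreated and LPS knockout arrays of replicate 2. All 7 measured dendritic cell markers, Itgax and the MHC class II genes among them, were above background on every array, and none of 4 measured T and NK cell markers was. So were all 6 macrophage, all 5 monocyte and 6 of 8 neutrophil markers. The same held for 3 of 4 B cell, 3 of 5 stromal and 2 of 5 mast cell and eosinophil markers. Signal above background therefore does not identify the cells as dendritic.

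By 1.5 h, a small subset of the interferon genes had responded to LPS. Ifnb1, Isg15, Ifit1, Oasl1 and Ifih1 rose in both genotypes (1.32% of all genes did), by 1.66 to 2.97 on the log2 scale in wildtype cells. Rsad2, Cmpk2 and Ifit2 passed the test upward in knockout cells, and Irgm2, Igtp and Parp9 passed it downward there. The remaining 27 members, which include Mx1, Mx2, Usp18, Ifit3, Oas2, Oas3, Oasl2, Irgm1, Gbp3 and Gbp5, passed in neither genotype. With limma and Benjamini-Hochberg adjustment over all genes at 0.05, 5 of 38 members rose in wildtype cells (13.2%, against 1.34% of all genes) and 0 fell (0.234% of all genes fell). In knockout cells 8 rose (21.1%, against 2.98%) and 3 fell (7.89%, against 2.93%). The median LPS difference of the members was 0.10 in wildtype cells and -0.02 in knockout cells, beside medians of -0.01 and -0.00 for all genes. The 95% interval of a member's difference extended 0.45 on either side of the estimate in wildtype cells and 0.32 in knockout cells (medians), because the untreated wildtype arrays counted as 1 sample.

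**Figure D1:**
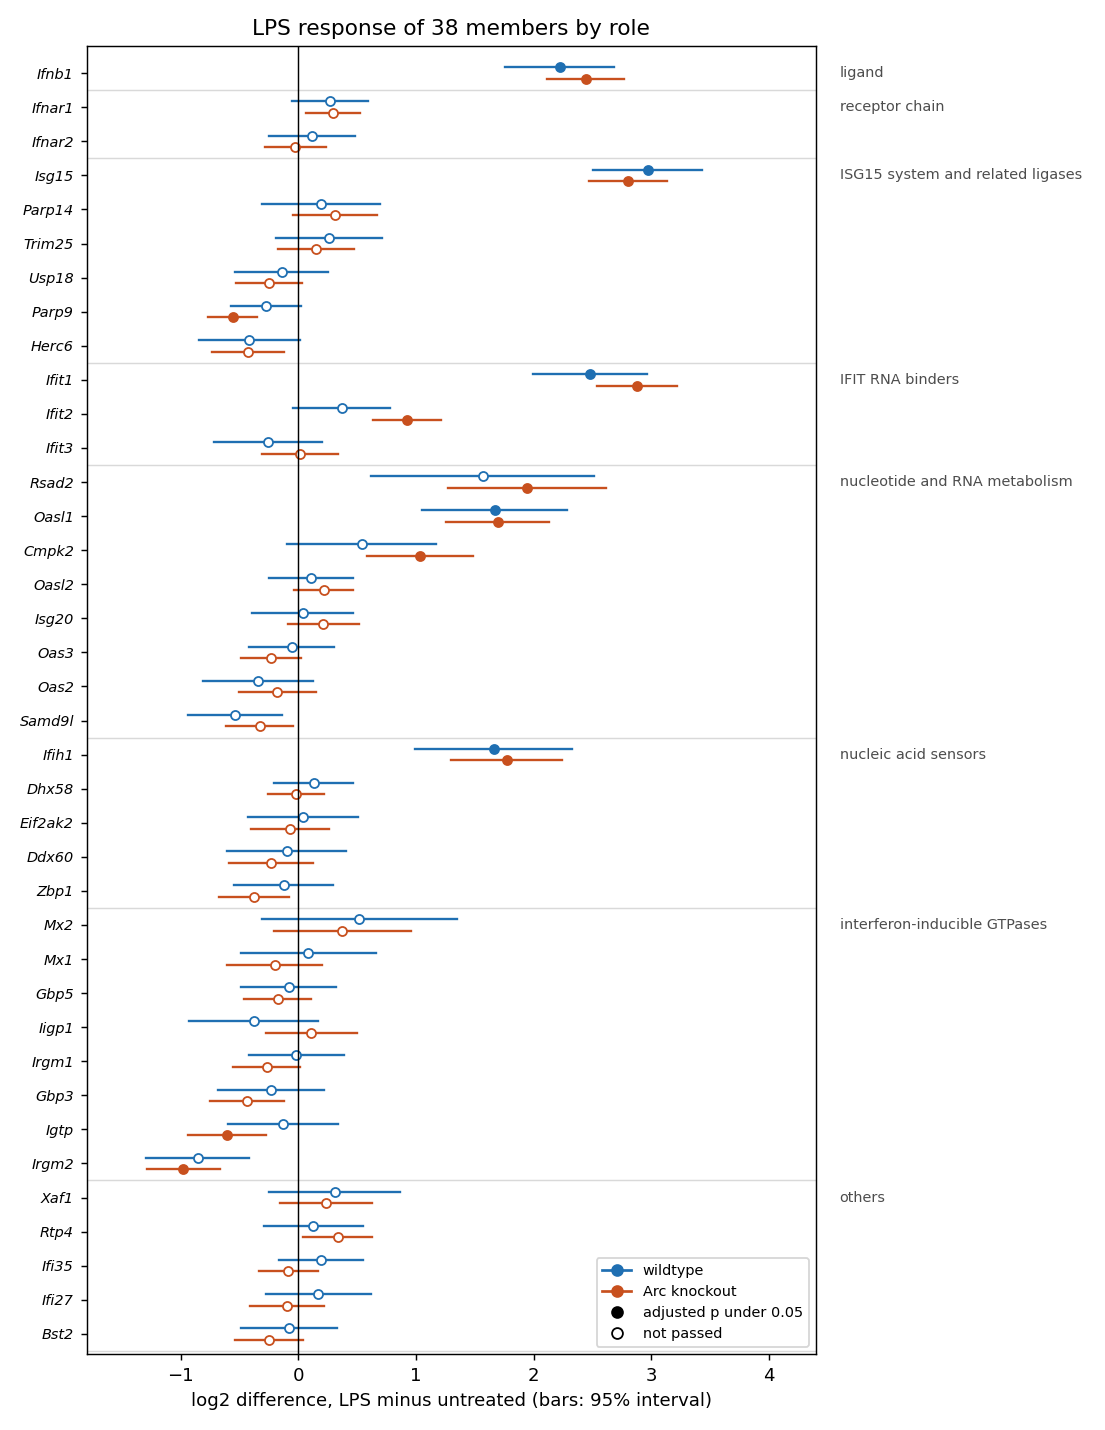
Log2 LPS difference (x axis) of each of the 38 measured members (y axis, grouped by role) in wildtype and knockout cells, as points with 95% confidence intervals from the limma fit; filled points passed the adjusted threshold of 0.05. The 5 members that passed upward in both genotypes stand at 1.66 to 2.97, and the differences of the 27 that passed in neither genotype lie within 0.54 of 0.

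Promoter sequences of these genes are shown here because members with the same motif behaved differently. RefSeq windows on GRCm38.p6, from 250 bases before to 50 bases after an annotated start, were found for 27 of the 38 measured members. Below are the 160 bases before the start of 6 members, with ISRE cores (GAAANNGAAA on either strand) in capitals. In Ifnb1 the capitals mark a wider pair of the same GAAA blocks (GAAANNNGAAA), which IRF factors also bind, and a match to the kappaB consensus. Ifnb1 and Ifnar1 were picked for their roles. Isg15 was picked as the member besides Ifnb1 with the largest mean LPS difference that holds an ISRE core. Its cores beside its rise are therefore a result of that choice. Ifit1, Ifit3 and Irgm2 were picked after their values were seen.
Ifnb1: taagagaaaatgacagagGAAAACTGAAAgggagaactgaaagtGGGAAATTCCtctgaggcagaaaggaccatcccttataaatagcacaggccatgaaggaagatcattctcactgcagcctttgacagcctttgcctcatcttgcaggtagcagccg
Isg15: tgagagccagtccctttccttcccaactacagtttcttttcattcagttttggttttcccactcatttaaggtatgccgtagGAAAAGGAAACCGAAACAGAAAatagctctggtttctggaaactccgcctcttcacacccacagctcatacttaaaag
Ifit1: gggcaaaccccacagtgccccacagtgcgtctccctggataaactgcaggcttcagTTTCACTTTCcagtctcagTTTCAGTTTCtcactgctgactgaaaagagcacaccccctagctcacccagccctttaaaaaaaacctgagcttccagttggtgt
Ifit3: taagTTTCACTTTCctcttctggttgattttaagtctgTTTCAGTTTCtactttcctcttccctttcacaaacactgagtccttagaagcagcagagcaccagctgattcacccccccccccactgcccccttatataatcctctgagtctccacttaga
Irgm2: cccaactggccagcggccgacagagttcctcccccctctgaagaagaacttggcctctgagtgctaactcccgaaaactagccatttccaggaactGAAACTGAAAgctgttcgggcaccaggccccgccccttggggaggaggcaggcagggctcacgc
Ifnar1: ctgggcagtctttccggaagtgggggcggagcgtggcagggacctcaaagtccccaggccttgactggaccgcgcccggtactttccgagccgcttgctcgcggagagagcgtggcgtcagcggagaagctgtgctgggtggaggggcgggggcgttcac
These stretches lie at chr4:88522795-88522954 (minus strand) for Ifnb1, chr4:156200819-156200978 (minus strand) for Isg15 and chr19:34640729-34640888 (plus strand) for Ifit1. Those of Ifit3, Irgm2 and Ifnar1 lie on the plus strand at chr19:34583369-34583528, chr11:58214817-58214976 and chr16:91485055-91485214.

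An ISRE core was found in 14 of the 27 members with a window (51.9%), against 3.99% of all 27025 genes with a window and 3.44% of all 32851 windows. Genes with several windows counted once, with a match in any of them. It was present in 4 of the 8 members that rose in either genotype (Isg15, Ifit1, Rsad2 and Ifih1), in both members with a window that fell (Irgm2 and Igtp) and in 8 of the 17 that passed in neither genotype (Bst2, Ddx60, Eif2ak2, Gbp3, Gbp5, Ifit3, Irgm1 and Oas3). The single spelling GAAACTGAAA occurred in 6 members (22.2%, against 0.263% of all genes and 0.231% of windows). Ifit1, which rose, carries it, as do Irgm2 and Igtp, which fell in knockout cells, and Ifit3, Bst2 and Gbp3, which passed in neither genotype. The Isg15 window holds 3 overlapping cores within a single purine-rich run, and the Ifih1 core lies 33 bases after the start. The wider pair was found in 5 members (18.5%, against 3.17% of genes and 2.75% of windows), Ifnb1, Rsad2 and Ifih1 among the risers and Ifit3 and Samd9l among those that passed in neither genotype. It overlaps an ISRE core in Ifit3 and lies next to the core in Rsad2.

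A match to the kappaB consensus was found in 7 members (25.9%, against 9.55% of genes and 8.46% of windows). These are the risers Ifnb1, Ifit2 and Oasl1, and Bst2, Gbp5, Isg20 and Oas3, which passed in neither genotype. Cmpk2 had a window with none of the 3 motifs. A match of letters is no measure of binding, and motifs outside the windows were not searched.

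**Figure D2:**
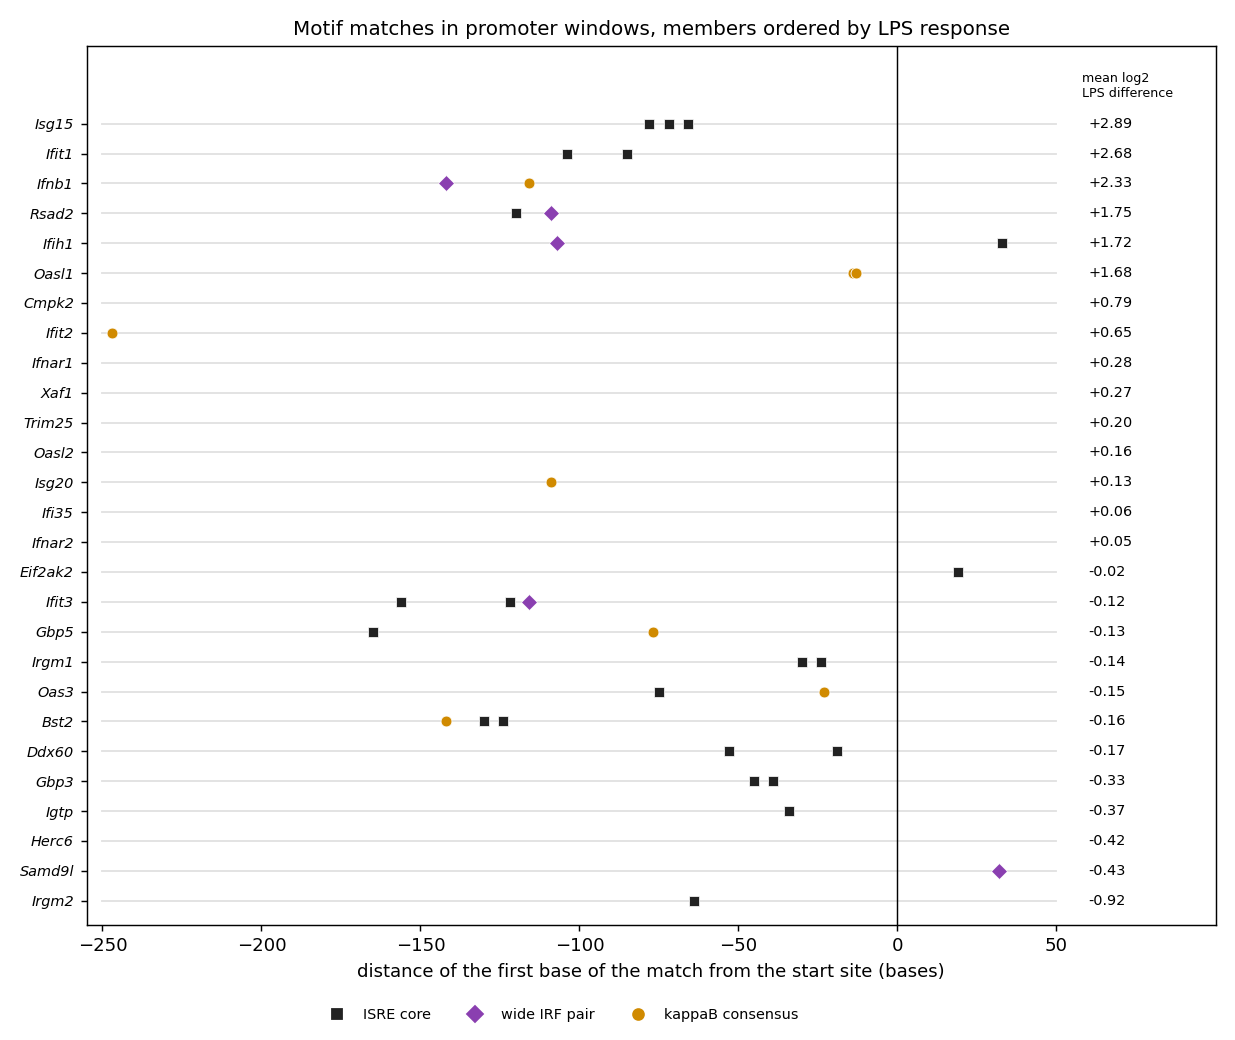
Position of motif matches (x axis, bases from the annotated start) in the RefSeq windows, 250 bases before to 50 after the start, of 27 members (y axis), ordered by the mean log2 LPS difference of both genotypes, which is printed at the right. Squares mark ISRE cores, diamonds the wider IRF pair and circles the kappaB consensus; ISRE cores appear near the top of the order (Isg15, Ifit1) and near its bottom (Igtp, Irgm2).

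The ligand gene Ifnb1 was below background without LPS and above it with LPS on every array. Its log2 signal was 4.97, 5.52 and 5.25 on the untreated wildtype arrays and 7.60, 7.34 and 7.46 after LPS. In knockout cells it was 5.17, 4.88 and 5.20 untreated and 7.23, 7.69 and 7.65 after LPS. The LPS and untreated arrays did not overlap in either genotype, and the lowest LPS array stood above the highest untreated one by more than any replicate range. The LPS difference came to 2.22 (SE 0.21) for wildtype and 2.44 (SE 0.15) for knockout cells, by limma with adjusted p-values of 0.000458 and 8.77e-06. Because the untreated signal was 0.83 and 0.86 below the background median, these differences on the deposited scale are bounded by the background, and the LPS arrays stood 1.49 and 1.52 above it.

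The receptor chains were abundant before and after LPS. Ifnar1 was 10.95, 10.98 and 10.96 on untreated and 11.16, 11.25 and 11.29 on LPS wildtype arrays, and 10.95, 10.76 and 11.02 against 11.18, 11.24 and 11.18 in knockout cells. The LPS arrays were all higher in both genotypes, yet the differences of 0.27 (SE 0.15) and 0.29 (SE 0.10) missed the threshold, with limma adjusted p-values of 0.634 and 0.139. Ifnar2 ranged from 10.50 to 10.83 over the 12 arrays, and its groups overlapped.

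Isg15 encodes a ubiquitin-like protein that is attached to other proteins during the antiviral response. Its log2 signal was 7.07, 7.10 and 7.01 on untreated and 10.16, 10.12 and 9.81 on LPS wildtype arrays, and 7.40, 7.18 and 7.28 against 9.81, 10.13 and 10.32 in knockout cells. The difference of 2.97 (SE 0.21, 7.83-fold) in wildtype cells stood beside 2.80 (SE 0.15, 6.97-fold) in knockout cells. The partners of Isg15 did not follow it. Usp18, which removes ISG15 from proteins and restrains the interferon receptor, differed by -0.14 (SE 0.18) and -0.25 (SE 0.13), and Herc6, the main ISG15 ligase of the mouse, by -0.42 (SE 0.19) and -0.43 (SE 0.14). Trim25, a ligase that acts on RNA sensing, differed by 0.26 and 0.15, and Parp14, an ADP-ribosyltransferase, by 0.19 and 0.31. Usp18, Herc6, Trim25 and Parp14 were well above background on all arrays (9.31 to 11.03) and passed in neither genotype. Herc6 in knockout cells passed in the fit with the replicate number as a block (limma adjusted p = 0.0313, against 0.102 without the block).

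The 3 IFIT genes, whose products bind foreign RNA, gave 3 outcomes. Ifit1 was 7.27, 6.75 and 7.17 on untreated and 9.72, 9.57 and 9.34 on LPS wildtype arrays, and 6.99 to 7.06 untreated against 9.61, 9.86 and 10.21 in knockout cells. It rose by 2.48 (SE 0.22, 5.57-fold) in wildtype and 2.88 (SE 0.16, 7.35-fold) in knockout cells. Ifit2 lay below background on all 6 untreated arrays (5.72 to 5.91) and above it on all 6 LPS arrays, at 6.17, 6.43 and 6.09 in wildtype and 6.43, 6.81 and 6.77 in knockout cells. Its difference was 0.92 (SE 0.13, limma adjusted p = 0.0023) in knockout cells and 0.37 (SE 0.19, adjusted p = 0.589) in wildtype cells. As for Ifnb1, the untreated signal was not above background, so these differences, and the one between them, are bounded by the background; the LPS means stood 0.67 and 0.26 above it. Ifit3 was 7.75, 7.64 and 7.74 against 7.18, 7.76 and 7.42 in wildtype cells, and 7.28, 7.44 and 7.61 against 7.45, 7.45 and 7.47 in knockout cells. Its groups overlapped in both genotypes, and the differences of -0.26 (SE 0.21) and 0.01 (SE 0.15) had 95% intervals that reached no higher than 0.20 and 0.34. The promoter stretches of Ifit1 and Ifit3 printed above each hold 2 ISRE cores, with the same pair of spellings.

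**Figure D3:**
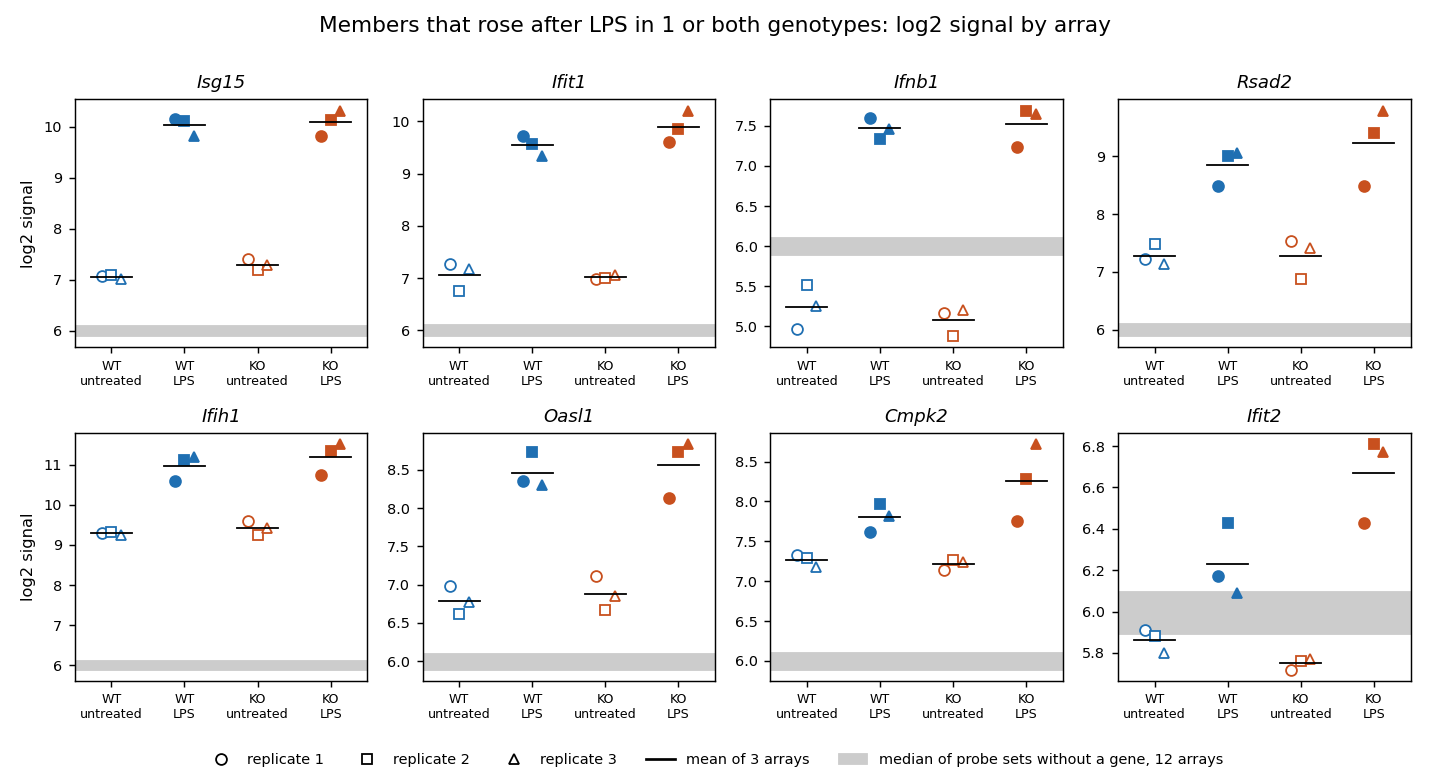
Log2 signal (y axis) on each array, by group (x axis), of the 8 members that passed upward in knockout cells, 5 of which also passed in wildtype cells; open symbols are untreated and filled ones LPS arrays, symbol shape gives the replicate number, lines are means of 3 arrays and the grey band spans the background medians of the 12 arrays. Ifnb1 starts below the band, and Ifit2 below it or at its lower edge. In Rsad2, Cmpk2 and Ifih1 the LPS array of replicate 1 is the lowest in both genotypes.

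Among the genes of nucleotide and RNA metabolism, Rsad2 and Cmpk2 rose in knockout cells. Rsad2 encodes viperin, which makes a chain-terminating nucleotide, and Cmpk2 a mitochondrial nucleotide kinase. Rsad2 was 7.23, 7.48 and 7.14 on untreated and 8.48, 9.01 and 9.06 on LPS wildtype arrays, and 7.53, 6.88 and 7.42 against 8.48, 9.40 and 9.79 in knockout cells. All LPS arrays stood above all untreated ones in both genotypes. The difference was 1.94 (SE 0.30, limma adjusted p = 0.0040) in knockout cells and 1.57 (SE 0.43, adjusted p = 0.135) in wildtype cells. The wildtype value passed when the 12 arrays were taken as 12 samples (adjusted p = 0.0038) and when the knockout LPS array of replicate 1 was left out (adjusted p = 0.0276). Cmpk2 was 7.33, 7.29 and 7.18 against 7.62, 7.97 and 7.82 in wildtype cells, and 7.14, 7.26 and 7.24 against 7.75, 8.28 and 8.72 in knockout cells. Its difference was 1.04 (SE 0.20, adjusted p = 0.0135) in knockout cells and 0.54 (SE 0.29, adjusted p = 0.63) in wildtype cells. The knockout call of Cmpk2 was lost without the untreated knockout array of replicate 1 (adjusted p = 0.0533) or of replicate 3 (adjusted p = 0.0504).

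Oasl1, an OAS-like protein that limits translation of the interferon regulator IRF7, rose in both genotypes. It was 6.98, 6.62 and 6.78 against 8.35, 8.73 and 8.30 in wildtype cells, and 7.11, 6.67 and 6.85 against 8.13, 8.73 and 8.84 in knockout cells. The differences were 1.67 (SE 0.28) and 1.69 (SE 0.20), with limma adjusted p-values of 0.0145 and 0.000643, and the groups did not overlap. Oas2 and Oas3, the synthetases that activate RNase L, differed by -0.34 (SE 0.21) and -0.06 (SE 0.16) in wildtype and by -0.18 (SE 0.15) and -0.23 (SE 0.12) in knockout cells. Oasl2 differed by 0.11 (SE 0.16) and 0.22 (SE 0.11). The exonuclease Isg20 differed by 0.04 and 0.21, and the growth suppressor Samd9l by -0.54 (SE 0.18) and -0.33 (SE 0.13). Samd9l was lower on all LPS than on all untreated wildtype arrays (7.75 to 7.87 against 8.26 to 8.43), yet its adjusted p was 0.254 by limma.

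Of the 5 nucleic acid sensors, Ifih1, which encodes the double-stranded RNA sensor MDA5, rose in both genotypes. Its signal was 9.31, 9.33 and 9.26 untreated against 10.59, 11.11 and 11.19 after LPS in wildtype cells, and 9.60, 9.26 and 9.43 against 10.74, 11.35 and 11.52 in knockout cells. It was already well above background without LPS, unlike Ifnb1 and Ifit2. The differences were 1.66 (SE 0.30) and 1.77 (SE 0.21), with limma adjusted p-values of 0.0231 and 0.0008. The wildtype call was lost without the wildtype LPS array of replicate 2 (adjusted p = 0.0611) or of replicate 3 (adjusted p = 0.0702), in the fit of the wildtype groups alone (adjusted p = 0.0509) and in the fit on all probe sets (adjusted p = 0.0542). The related helicase Dhx58 (LGP2) differed by 0.13 (SE 0.15) and -0.02 (SE 0.11), and Ddx60 by -0.10 and -0.23. The kinase gene Eif2ak2 (PKR) differed by 0.04 and -0.07. Zbp1, a sensor of Z-form nucleic acid, differed by -0.12 and -0.38, and none of these 4 passed in either genotype.

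No interferon-inducible GTPase gene rose. Mx1, a gene of the dynamin-like GTPase family, was 10.36, 10.36 and 10.38 against 10.22, 10.65 and 10.49 in wildtype cells. In knockout cells it was 10.60, 10.33 and 10.97 against 10.25, 10.36 and 10.69. Its groups overlapped, with differences of 0.09 (SE 0.26) and -0.20 (SE 0.18). Mx2 was 7.54, 7.82 and 7.54 against 7.97, 8.19 and 8.30, and 7.99, 7.83 and 8.52 against 7.84, 8.67 and 8.95. All its LPS arrays were higher in wildtype but not in knockout cells, and the differences of 0.52 (SE 0.37) and 0.37 (SE 0.26) missed the threshold. The guanylate-binding proteins Gbp3 and Gbp5 differed by -0.23 and -0.08 in wildtype and by -0.44 and -0.17 in knockout cells. Iigp1 was above the background median on 4 of 12 arrays, which leaves no level to compare.

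The immunity-related GTPases Irgm2 and Igtp, which act on vacuoles that hold pathogens, and Parp9, an ADP-ribosylation partner of Dtx3l, fell in knockout cells. Irgm2 was 7.53, 7.64 and 7.49 against 6.77, 6.64 and 6.70 in wildtype cells, and 7.57, 7.94 and 7.68 against 6.49, 6.94 and 6.82 in knockout cells. Its groups were separate in both genotypes. It fell by 0.98 (SE 0.14, limma adjusted p = 0.0024) in knockout cells, and the wildtype difference was -0.85 (SE 0.20, adjusted p = 0.0675). Under the replicate block the wildtype value passed (adjusted p = 0.0367). Parp9 fell by 0.56 (SE 0.09, adjusted p = 0.0063) in knockout cells, from 9.40, 9.38 and 9.35 to 8.77, 8.81 and 8.88. Its wildtype values were 9.12, 9.27 and 9.34 untreated against 8.88 to 9.01 after LPS, a difference of -0.28 (SE 0.13). Igtp fell by 0.60 (SE 0.15, adjusted p = 0.0413) in knockout cells, from 7.31, 7.38 and 7.21 to 6.48, 7.04 and 6.57, and differed by -0.13 (SE 0.21) in wildtype cells. The Igtp call was lost under 13 of 26 other settings, 8 of which left out a single array. Leaving out any untreated knockout array gave adjusted p-values of 0.0896 to 0.131, and leaving out the knockout LPS array of replicate 1 or 3 gave 0.113 or 0.16. Without any of the wildtype LPS arrays it was 0.0503 to 0.0621.

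Summed markers of neutrophils, monocytes and macrophages were lower after LPS, beside these falls. The summed linear signal of 8 neutrophil markers was 6767 to 6939 on untreated and 1697 to 3412 on LPS wildtype arrays, and 4902 to 7304 against 1862 to 3007 in knockout cells. For 5 monocyte markers the sums were 6626 to 7021 against 2242 to 3128, and 6123 to 6447 against 1920 to 2734. For 6 macrophage markers they were 16320 to 17310 against 10810 to 13430, and 15860 to 17420 against 7758 to 13420, and the LPS and untreated arrays did not overlap for any of these 3 lists. Of these markers, Camp and Ccr2 fell in wildtype cells, and 5 neutrophil markers, 3 monocyte markers and the macrophage marker Lyz2 fell in knockout cells. Of the 6 macrophage markers, 0 passed in wildtype cells. Lyz2, the brightest of them, weighs most in their sum. In knockout cells the LPS and untreated arrays of Lyz2 and Adgre1 were separate, and those of Mertk, Fcgr1, Cd68 and Csf1r overlapped. The part of these cells in the falls of Irgm2, Igtp and Parp9 was not tested. Plasmacytoid dendritic cells, a major source of type I interferon, had 6 measured markers, 4 of them above background on every array. Their summed signals were 945.2 to 969.4 on untreated and 1027 to 1072 on LPS wildtype arrays, which did not overlap. In knockout cells the sums were 968.4 to 1121 against 938.7 to 1117 and overlapped. Of the 6 markers, 0 passed the limma test in either genotype (0 at an unadjusted p under 0.05).

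**Figure D4:**
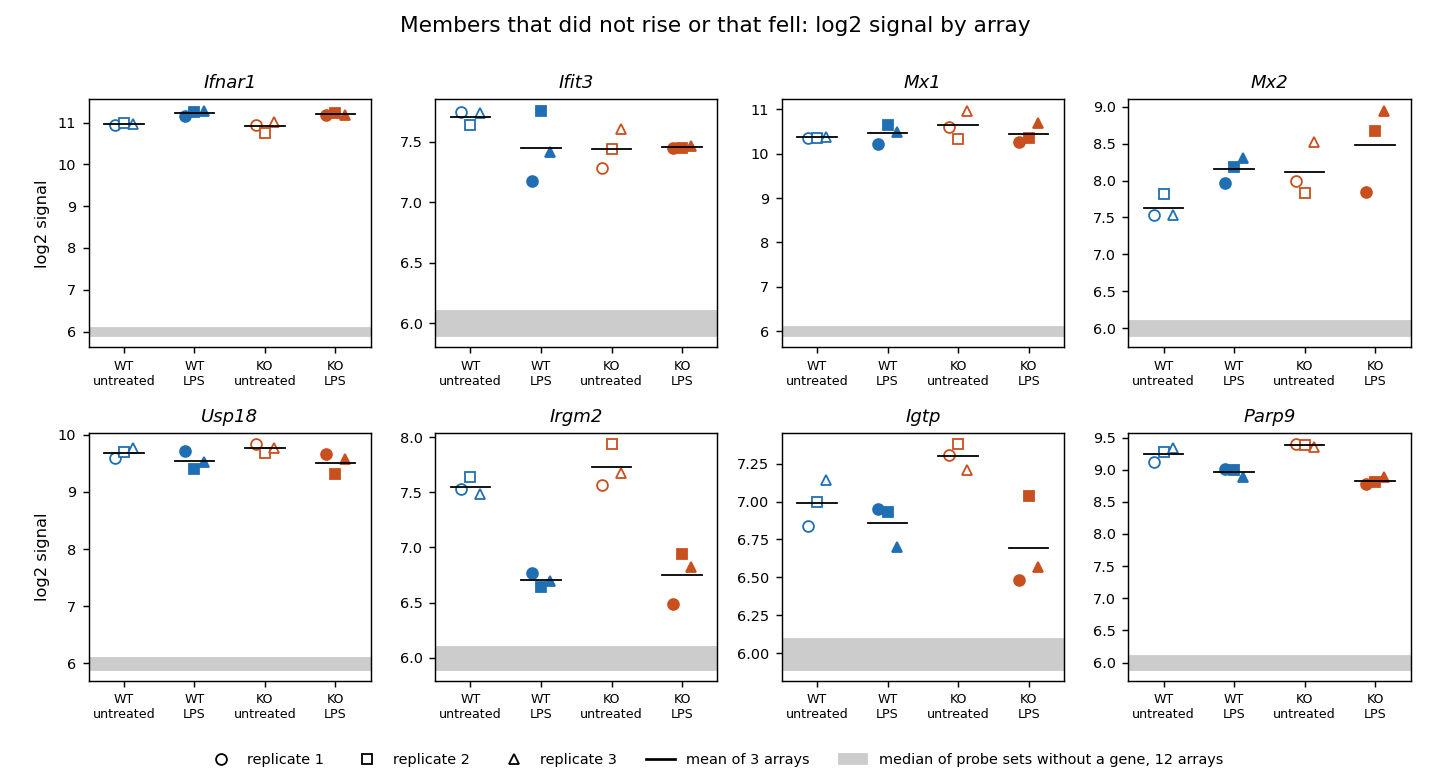
Log2 signal (y axis) on each array, by group (x axis), of 8 members that did not rise; open symbols are untreated and filled ones LPS arrays, symbol shape gives the replicate number, lines are means of 3 arrays and the grey band spans the background medians of the 12 arrays. Ifnar1, Ifit3, Mx1, Mx2 and Usp18 passed in neither genotype, all well above the band, and Irgm2, Igtp and Parp9 passed downward in knockout cells.

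The remaining interferon-stimulated members, with varied roles, were above background on all arrays and passed in neither genotype. Bst2 (tetherin, which holds budding virus on the cell surface) was the brightest member, at 11.78 to 12.26, and differed by -0.08 and -0.25. Rtp4 differed by 0.13 and 0.33, Ifi27 by 0.17 and -0.09, and Xaf1 by 0.31 and 0.23. Ifi35 differed by 0.20 and -0.08 on its brighter probe set and by 0.09 and -0.02 on the other. Irgm1, a regulator of the other immunity-related GTPases, differed by -0.02 and -0.27.

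Of the 27 members that passed in neither genotype, 26 were above background on all 12 arrays, Iigp1 being the exception. For 26 of the 27 (all but Mx2 in wildtype cells, whose interval reached 1.34), the 95% interval of the LPS difference lay between -1 and 1 in both genotypes. That is less than a 2-fold change on the deposited scale. Iigp1 is among the 26, but its signals lay at background, so its interval bounds no change of its level. Counting arrays alone, all LPS arrays were above all untreated ones for 14 of 38 members in wildtype and 9 in knockout cells, where 16.2% and 10.3% of all genes were. They were below for 6 and 8 members, against 13.9% and 14.8% of all genes.

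No member passed a test between the genotypes. Before LPS, 0 of 38 members passed the limma test between knockout and wildtype cells, and 0 had an unadjusted p under 0.05 (0.00451% of all genes passed upward and 0% downward). Arc itself, with means of 9.39 in untreated wildtype and 7.91 in untreated knockout cells, thus did not pass either. A miss in this test therefore does not show equal levels. After LPS, 0 passed and 2 had an unadjusted p under 0.05, Ifit1 at 0.35 (SE 0.16) and Ifit2 at 0.44 (SE 0.13) higher in knockout cells, each with an adjusted p of 0.999 (0.00451% of all genes passed upward and 0.00451% downward). In the test of the difference between the LPS responses, 0 of 38 members and 0% of all genes passed, and Ifit2 alone had an unadjusted p under 0.05, at 0.56 (SE 0.23, limma adjusted p = 0.948). Rsad2 and Cmpk2 responses differed by 0.38 (95% interval -0.79 to 1.54) and 0.50 (-0.28 to 1.27), those of Parp9 by -0.28 (-0.64 to 0.08) and of Igtp by -0.47 (-1.05 to 0.10). The responses of Ifnb1 and Isg15 differed by 0.22 (-0.34 to 0.79) and -0.17 (-0.74 to 0.40). The members that passed in knockout but not in wildtype cells are thus not shown to differ between the genotypes.

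**Figure D5:**
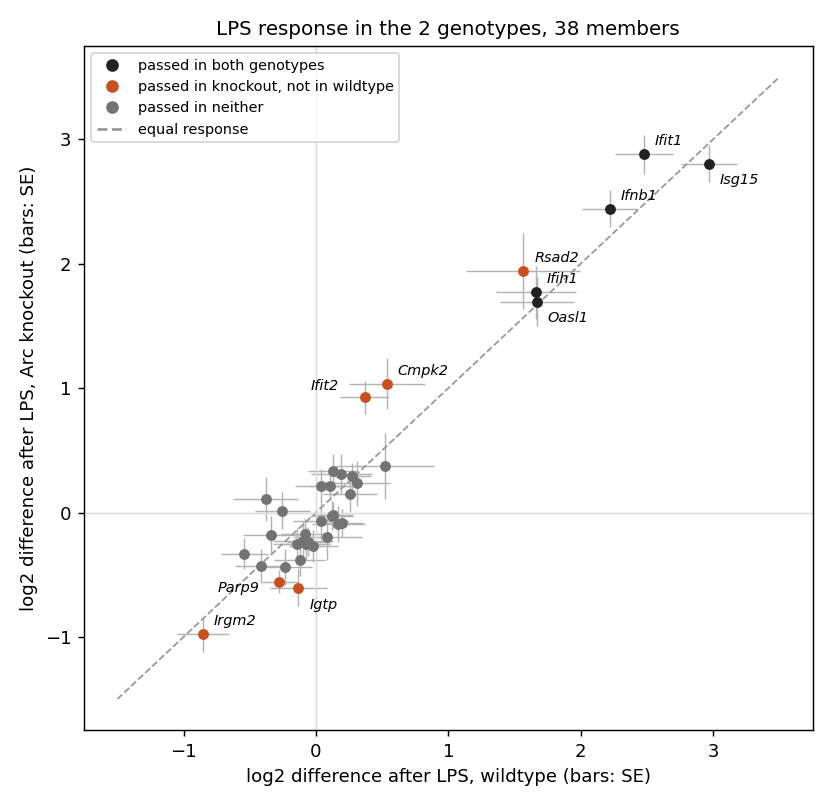
Log2 LPS difference of the 38 measured members in wildtype cells (x axis) against knockout cells (y axis), with standard errors as bars; colours give which test was passed and the diagonal marks equal differences. The 5 members that passed upward in both genotypes lie at the upper right, and Irgm2 at the lower left.

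The second and the third LPS array of both genotypes, which had the low small RNA signal, carried the larger responses of some members. Of the 8 risers, the replicate 1 array gave the smallest rise for 8 in knockout and for 3 (Rsad2, Cmpk2 and Ifih1) in wildtype cells. Against the untreated mean of its genotype, Rsad2 was higher by 1.20, 1.72 and 1.78 on the wildtype and by 1.20, 2.12 and 2.51 on the knockout LPS arrays. Ifih1 was higher by 1.29, 1.81 and 1.88, and by 1.31, 1.92 and 2.09. In wildtype cells replicate 1 gave the largest rise of Ifnb1 (2.35, 2.09 and 2.21), Isg15 (3.10, 3.06 and 2.75) and Ifit1 (2.65, 2.50 and 2.28). This wildtype LPS array had Y-linked signal and no untreated wildtype array did, so sex and LPS cannot be told apart on it. How often replicate 1 gave the smallest rise over all genes is not given here. Without the 4 arrays of low small RNA signal, which leaves 1 LPS array per genotype, 3 members rose in wildtype and 5 in knockout cells. The lone arrays were then assumed to vary like the untreated knockout arrays, and the lone wildtype LPS array is the one with Y-linked signal. The calls of Rsad2 (1.20, limma adjusted p = 0.0699), Cmpk2 (0.54, adjusted p = 0.0989), Ifit2 (0.68, adjusted p = 0.0611) and Parp9 (-0.61, adjusted p = 0.0743) in knockout cells were lost, as were those of Oasl1 (1.56, adjusted p = 0.0815) and Ifih1 (1.29, adjusted p = 0.089) in wildtype cells. A fit that kept the 4 arrays, with a term for them, held the calls just named. In knockout cells Rsad2 rose by 1.39 (limma adjusted p = 0.0091), Cmpk2 by 0.70 (0.0478) and Ifit2 by 0.77 (0.0133). Parp9 differed by -0.56 there (0.0217). In wildtype cells Oasl1 rose by 1.40 (0.0338) and Ifih1 by 1.24 (0.0118). These rises were smaller than in the main fit. The knockout call of Igtp was lost (-0.67, adjusted p = 0.0663). Beyond these fits, the part of the 4 arrays in the responses was not tested. Without the 3 arrays with Y-linked signal, 5 members rose in wildtype and 7 in knockout cells, the call of Cmpk2 being lost (limma adjusted p = 0.0752). Shares of all genes under these settings are not given, so the counts of members cannot be set against them.

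Genes around the members were read from lists of the same pathway. Of 18 other measured interferon genes, of type I and III besides the type II gene Ifng, 0 passed the limma test in either genotype. At an unadjusted p under 0.05 there were 1 and 2, and differences in wildtype cells were -0.55 (Ifna9) to 0.65 (Ifna7). Ifna7 was above background on all 12 arrays and Ifna9 on 1. Ifna2, Ifna11, Ifna13, Ifna16, Ifnab, Ifne and Ifnk were above it on 0 arrays, which leaves no level of these genes to compare. In the TLR4 branch that leads to Ifnb1, 1 of 12 measured genes rose in wildtype cells, the LPS co-receptor Cd14 (1.49, SE 0.28). In knockout cells 3 rose, Cd14 (1.76, SE 0.20), the IRF3 kinase Tbk1 (0.72, SE 0.12) and Jun (0.59, SE 0.15). Tbk1 in wildtype cells was 0.77 higher and just missed the threshold (limma adjusted p = 0.0514). Among 8 genes of interferon receptor signalling, the feedback inhibitor Socs3 rose in both genotypes (1.48 and 1.77), and no other passed. Stat2 and Irf9 differed by -0.04 and 0.12 in wildtype cells.

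Of 80 other measured interferon-stimulated genes, 6 rose and 0 fell in wildtype cells, and 11 rose and 3 fell in knockout cells. The chemokine genes Cxcl10 (4.64, SE 0.40 in wildtype, 4.57, SE 0.28 in knockout), Ccl12 (2.13 and 2.07) and Cxcl9 (1.10 and 1.38) rose in both genotypes. The PYHIN genes Ifi205 (1.96 and 1.87) and Ifi207 (1.36 and 1.80) and the ligase gene Peli1 (0.82 and 0.83) did so too. Ifitm1, Sp110, Ccl7, Casp4 and Cd274 rose in knockout cells by 0.49 to 1.01, and Trim34a, Il15 and Xrn2 fell there. Irf7, the interferon-inducible regulator that amplifies the response, differed by -0.11 (SE 0.15) and 0.01 (SE 0.11) and passed in neither genotype. The shares that rose, 7.5% and 13.8%, stand beside 1.34% and 2.98% of all genes and 13.2% and 21.1% of the 38 members. The shares that fell, 0% and 3.75%, were near those of all genes, 0.234% and 2.93%.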

How the data were processed

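Total RNA of 12 BMDC samples was hybridised to 1-colour Affymetrix gene arrays. The deposited value table holds log2 signals; the sources used here do not give its normalization or log base, and the submitters' processing notes name limma. Of 34390 probe sets, 23521 name 1 gene, 1814 several and 9055 none, by the platform annotation. The brightest single-gene probe set stood for each of 22180 genes. Group means and 5 contrasts were fitted with limma 3.58.1 in R 4.3.3 over all genes, on 10 samples with 6 residual degrees of freedom, the untreated wildtype arrays averaged, and p-values were adjusted by Benjamini-Hochberg at 0.05, two-sided. The fit was tested on simulated data. All listed members are named; genes of other lists are named where they passed, or for their role after their values were seen. The members and lists were chosen with earlier results of these data known. The background level is a description, as no detection calls were used.

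Same-numbered arrays deviated together between untreated and LPS knockout cells (r = 0.38, 0.30 and 0.20) and between the LPS groups (r = 0.34, 0.36 and 0.23), not with untreated wildtype arrays (r = -0.05 to 0.01). The replicate number was therefore a block in an alternative. Array precision is limited by the number of arrays. Alternatives covered sample counting, blocks, normalization, probe choice, filters, arrays that stood apart and each array left out; 2 of 26 were added after seeing the data.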

Additional observations from a re-analysis of the deposited data

How the results depend on the processing

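The calls of Ifnb1, Isg15 and Ifit1 in both genotypes, and of Oasl1, Ifih1 and Irgm2 in knockout cells, held under all 26 alternatives, and 0 members passed between genotypes or in the test of the difference in response under any of those run (the fit of only the groups compared has no such test). No called direction turned. In wildtype cells the number that rose (5) was 3 without the arrays of low small RNA signal and 4 to 6 with each array left out in turn. The number that fell (0) was 2 with 12 arrays as 12 samples, 1 with the replicate block, 3 with both, 1 with a filter at background, 1 with trend and robust estimation, 1 with a term for arrays with Y-linked signal, and 0 to 1 with each array left out; the single gene was Irgm2. In knockout cells the number that rose (8) was 5 without the arrays of low small RNA signal and 7 to 8 with each array left out. The number that fell (3) was 6 with the replicate block on 12 samples, with Herc6, Zbp1 and Gbp3 added, and 2 to 3 with each array left out. With the replicate block, 4 members fell in knockout cells, Herc6 being added (-0.43, limma adjusted p = 0.0313), and on these 10 samples the pairing changed no other call than those of Herc6 and, in wildtype cells, Irgm2. Over all genes, LPS calls in wildtype cells numbered 297 up and 52 down, and 1195 and 722 with 12 arrays as 12 samples. The replicate block gave 483 and 182 in wildtype and 952 and 1360 in knockout cells, against 661 and 650. With 12 arrays as 12 samples, knockout cells had 872 and 1149. Between genotypes before LPS, all genes gave 1 up and 0 down in the main fit. They gave 6 and 91 with 12 arrays as 12 samples and 2 and 1 with the block. After LPS the counts were 1 and 1, 1 and 1, and 2 and 2 in the same order. In the test of the difference in response they were 0 and 0, 55 and 0, and 9 and 0. Counts over all genes at the other settings are not given here, so the member counts there have no share to stand beside. Untreated signals of Ifnb1 and Ifit2, and most of Iigp1, were not above background, which bounds their differences.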

Other observations

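Neighbouring members responded alike in some pairs and not in others. In the RefSeq order of protein-coding genes, Rsad2 and Cmpk2 are neighbours on chromosome 12, and their knockout differences were 1.94 and 1.04. Irgm2 and Igtp, neighbours on chromosome 11, fell by 0.98 and 0.60 in knockout cells. Ifit2 and Ifit3 lie side by side on chromosome 19 and differed by 0.92 and 0.01 in knockout cells. Oasl1 and Oasl2, neighbours on chromosome 5, differed by 1.69 and 0.22 in knockout and by 1.67 and 0.11 in wildtype cells. Oas2 and Oas3, also neighbours there, passed in neither genotype. On chromosome 16, Parp9 fell in knockout cells by 0.56, while Parp14, on the other side of Dtx3l, differed by 0.31.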
